A study of Mus musculus with 36 samples.

Results

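Toll-like receptors and the proteins that work beside them were examined in the brain of Tpp1-/- mice, a model of classical late-infantile neuronal ceroid lipofuscinosis (CLN2 disease), in which the gene for the lysosomal protease tripeptidyl peptidase 1 is disrupted. The 10 members were taken by gene name, with no threshold on their values but with earlier results of these data known: the receptors Tlr1, Tlr2, Tlr3, Tlr4, Tlr7, Tlr9 and Tlr13, the co-receptor Cd14, the receptor partner Ly86 (also called MD-1) and the adaptor Myd88. They are 10 of the 53274 genes listed at all 3 ages, and all 10 passed the filter on low counts at every age. RNA-seq was performed on forebrain/midbrain (F/M) and cerebellum (Cb) at 1, 2 and 3 months of age, with 3 libraries of Tpp1-/- mice and 3 of unaffected siblings in each region at each age, 36 libraries in all. The line carries a targeted disruption in every cell and is kept by heterozygous crosses, so the controls are siblings that were labelled wild type (wt), except for control replicate 3 at 1 month in both regions, which was labelled Tpp1+/-. The libraries at 2 months were all labelled male, whereas each group at 1 and 3 months held 1 library labelled female and 2 labelled male.

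Toll-like receptors recognise microbial components and molecules released by damaged cells. Some sit at the cell surface, where TLR2 pairs with TLR1 or TLR6 for lipopeptides and TLR4 binds lipopolysaccharide delivered by CD14. Others sit in endosomes and sense nucleic acids, as TLR3 does for double-stranded RNA, TLR7 for single-stranded RNA, TLR9 for unmethylated CpG DNA and the rodent receptor TLR13 for bacterial ribosomal RNA. All of these receptors except TLR3 signal through the adaptor MyD88 to NF-kappaB and interferon regulatory factors, and Ly86 is the partner of RP105 (Cd180), a receptor relative found on B cells and macrophages. In the brain most of the family is known from microglia, whereas TLR3 and MyD88 are also found in other cells.

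The genes lie at separate places in the mouse genome (GRCm38 coordinates, GENCODE M21). Tlr1 is at chr5:64924679-64933563, Tlr2 at chr3:83836272-83841767, Tlr3 at chr8:45395665-45411080, Tlr4 at chr4:66827584-66930284 and Tlr9 at chr9:106222598-106226883. Tlr7 at chrX:167304929-167330558 and Tlr13 at chrX:106143204-106160493 are X-linked. Myd88 is at chr9:119335934-119341411 and Ly86 at chr13:37345208-37419036. Reads were counted over exons on the strand of the gene. RefSeq promoter windows were at hand for 7 of the 10 members. The stretch upstream of the annotated exons is shown for Ly86, Tlr13 and Tlr2, because these are the members with a window that rose in Tpp1-/- Cb at 3 months. Capitals mark matches on either strand to GAGGAA, a core bound by the myeloid factor PU.1, or to GGGNNTTCC, a spelling of the NF-kappaB motif, and sequences run 5′ to 3′ on the strand of the gene (RefSeq, GRCm38.p6).
Ly86, chr13:37345095-37345207, plus strand: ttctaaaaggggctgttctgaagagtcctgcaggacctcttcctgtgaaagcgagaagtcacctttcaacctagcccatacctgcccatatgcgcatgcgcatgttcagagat
Tlr13, chrX:106143025-106143203, plus strand: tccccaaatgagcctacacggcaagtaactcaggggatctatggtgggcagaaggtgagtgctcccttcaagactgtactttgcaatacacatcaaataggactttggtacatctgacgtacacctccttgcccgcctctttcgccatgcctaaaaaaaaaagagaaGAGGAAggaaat
Tlr2, chr3:83841768-83841858, minus strand: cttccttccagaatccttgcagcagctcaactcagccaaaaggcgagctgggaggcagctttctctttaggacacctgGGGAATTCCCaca
The 179 bases of Tlr13 held 1 match to GAGGAA, which 17.1% of the 32851 RefSeq promoter windows held over the same stretch. The 91 bases of Tlr2 held 2 overlapping matches to GGGNNTTCC, 1 on each strand, in a place where 1.49% of windows held the motif. The 113 bases of Ly86 held neither motif, against 11.3% of windows for GAGGAA and 1.9% for GGGNNTTCC. These matches describe the letters of the windows and were not tested for binding.

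Total counts per library ranged from 10609896 to 29942380, with a median of 21049839. Tpp1 itself, the disrupted gene, had group means of 16.8 to 26.5 counts per 1000000 reads (CPM) in Tpp1-/- and was called lower there in both regions at every age. In controls it did not follow the labels in a simple way. At 1 month the libraries labelled wt had 87.8 and 89.5 CPM in Cb and 69.7 and 74.4 CPM in F/M, and those labelled Tpp1+/- had 55.9 and 46.6 CPM. At 2 months the controls, all labelled wt, had 110.0 to 111.0 CPM in Cb and 91.5 to 94.8 CPM in F/M. At 3 months the controls, also all labelled wt, had 50.8 to 56.0 CPM in Cb and 42.1 to 43.4 CPM in F/M, which is near the level of the 1-month libraries labelled Tpp1+/- and goes against the label. The fold between control and Tpp1-/- was 4.16 in Cb and 4.35 in F/M at 2 months and 2.48 and 2.54 at 3 months, and this change was called in both regions (edgeR adjusted p = 0.0223 and 0.0648). Against 1 month the change was called in Cb (edgeR adjusted p = 0.0721) but not in F/M (log2 difference 0.58, adjusted p = 0.564). The genotype of the 3-month controls was not tested, and it cannot be told apart here from age or from the counting of each age, so every comparison at 3 months is with libraries labelled wt. Microglia markers (12 genes) were detected in every group, and no B or T cell marker passed the filter on low counts. In Cb at 2 months, 5 of the 9 midbrain and thalamus markers tested were lower in Tpp1-/- (median log2 fold change -2.70), as were 3 of the 4 neutrophil markers tested (median -1.46), and their part in the results at that age was not tested. In F/M the summed midbrain and thalamus markers did not overlap between genotypes either, at 251 to 258 CPM in Tpp1-/- against 185 to 203 CPM in control at 2 months and 175 to 211 against 224 to 227 CPM at 3 months, although none of the 9 tested was called, and their part was not tested there. Summed forebrain markers in F/M at 2 months were 327 to 370 CPM in Tpp1-/- against 389 to 426 CPM in control. Summed cerebellum markers in F/M were 38.4 to 38.7 against 40.1 to 57.5 CPM at 1 month. They were 42.5 to 46.1 against 35.2 to 37.1 CPM at 2 months and 34.5 to 35.8 against 37.4 to 42.3 CPM at 3 months. The part of these markers was not tested either. Gene models, counting software and strand setting differed between ages, so that the members' levels were compared only within an age, and the Tpp1 levels set side by side above share this limit.

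In control brain the members spanned a wide range of levels. Per kilobase of exon, Tlr3 was the highest in both regions at 3 months, at 3.84 ± 0.209 CPM per kb in F/M and 3.42 ± 0.701 in Cb (mean ± SD, n = 3), and its lowest library exceeded the highest of the next member. In F/M it was followed by Ly86 at 2.04 ± 0.229, Myd88 at 1.70 ± 0.226, Tlr7 at 1.51 ± 0.151 and Cd14 at 1.28 ± 0.293 CPM per kb, and the ranges of neighbours in this run overlapped. Below them came Tlr13 at 0.764 ± 0.066, Tlr2 at 0.478 ± 0.142 and Tlr4 at 0.477 ± 0.0258 CPM per kb, of which the last pair overlapped. Tlr9 at 0.268 ± 0.0702 and Tlr1 at 0.142 ± 0.0381 CPM per kb were the lowest. In Cb the order changed: Myd88 at 1.75 ± 0.19 CPM per kb took the second place, above Ly86 at 1.05 ± 0.194, and Cd14 (0.546 ± 0.152), Tlr2 (0.539 ± 0.203), Tlr4 (0.535 ± 0.036) and Tlr7 (0.487 ± 0.0787) overlapped with their neighbours. Tlr9 and Tlr1 were again lowest, at 0.11 ± 0.0499 and 0.0872 ± 0.0401 CPM per kb in Cb. The counts behind these levels were small for some members, with 1 to 29 reads per library for Tlr1, 1 to 28 for Tlr9 and 13 to 66 for Cd14 over the 36 libraries, against 180 to 515 for Tlr3 and 40 to 371 for Ly86. Tlr1 and Tlr6 are close paralogs, and how 50-nt reads that match both were counted was not checked.

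**Figure D1:**
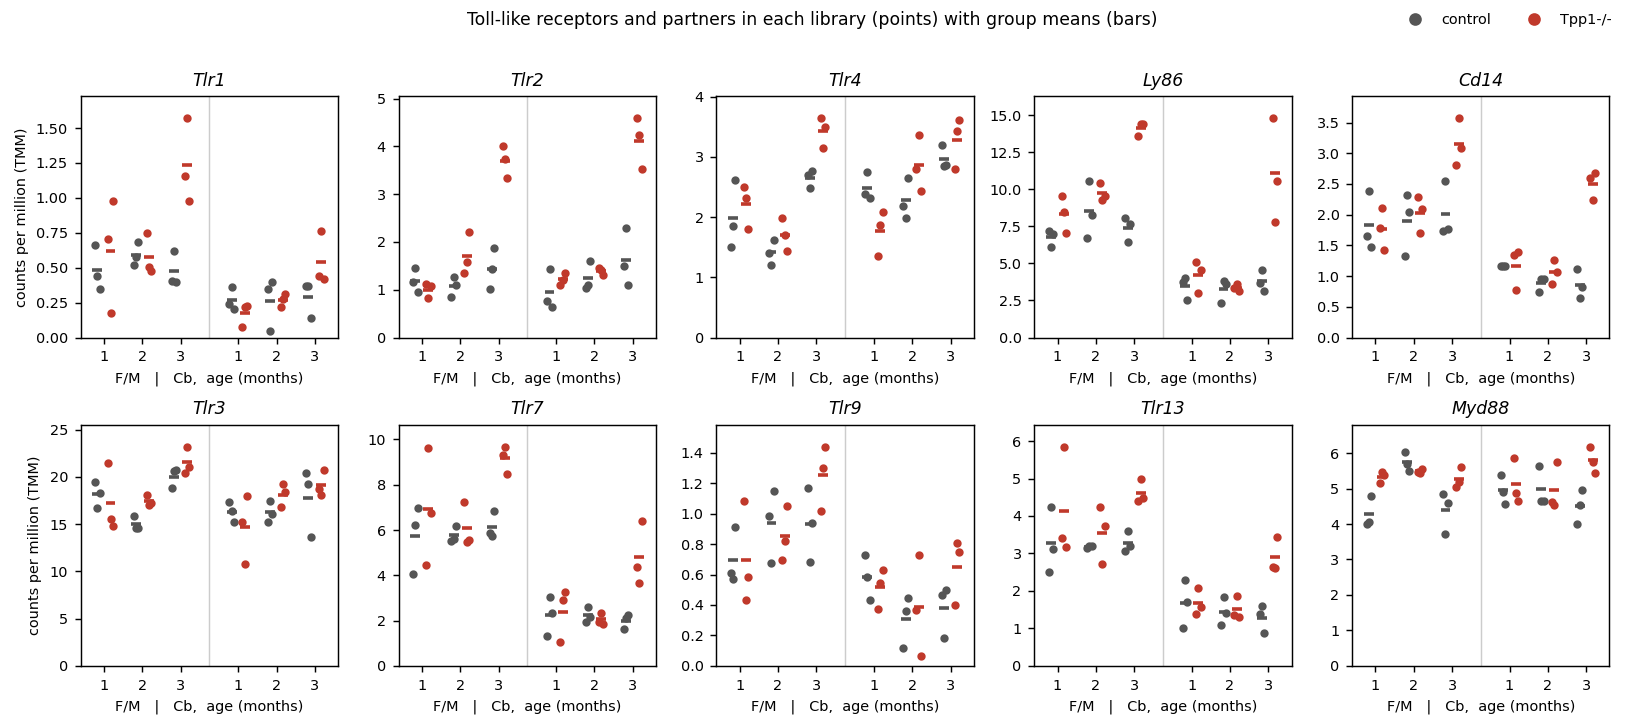
TMM-scaled counts per 1000000 reads (CPM) of the 10 members in each of the 36 libraries, by region and age in months, with control libraries in grey and Tpp1-/- libraries in red; bars are group means of 3 libraries. In Cb at 3 months the red points of Ly86, Cd14, Tlr7, Tlr13 and Tlr2 all lie above the grey ones, while Tlr3 stays between 13.6 and 20.7 CPM with overlapping groups.

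The first comparison asked how control Cb and control F/M differ. Ly86, Cd14, Tlr7 and Tlr13 were lower in Cb at every age, by between 1.57-fold and 3.09-fold, whereas Tlr2, Tlr3 and Myd88 were called at no age (Tlr2 was called lower at 1 month when Cb control replicate 2 was left out, edgeR adjusted p = 0.0567). A gene was called when edgeR's quasi-likelihood test gave a Benjamini-Hochberg adjusted p under 0.1 over all genes tested and the fold change was at least 1.5. At 1 month 4 of 10 members were called, all lower in Cb, where 36.9% of all genes were called (21.1% lower). At 2 months 7 of 10 were called, 6 lower and 1 higher, against 39.3% of all genes (21.9% lower and 17.4% higher). At 3 months 5 of 10 were called, all lower, against 37.7% (19.9% lower). Calls between the regions were thus common among all genes, and nothing particular to the members is read from these counts.

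Tlr7, the endosomal receptor for single-stranded RNA, measured 5.86, 5.72 and 6.85 CPM in the control F/M libraries at 3 months and 1.62, 2.11 and 2.23 CPM in control Cb. The F/M libraries were all above the Cb ones, and the log2 fold change of Cb over F/M was -1.63 ± 0.211 (SE; edgeR adjusted p = 1.75e-05). It was -1.37 ± 0.378 at 1 month (adjusted p = 0.00641) and -1.36 ± 0.163 at 2 months (adjusted p = 6.89e-07). Tlr13, the receptor for bacterial ribosomal RNA, had log2 fold changes of -0.99 ± 0.313, -1.11 ± 0.221 and -1.35 ± 0.221 at 1, 2 and 3 months, and its control F/M and Cb libraries did not overlap at any age.

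Ly86 measured 8.05, 6.47 and 7.69 CPM in control F/M at 3 months and 3.71, 4.54 and 3.14 CPM in control Cb, again without overlap. Its log2 fold changes were -0.98 ± 0.21, -1.37 ± 0.179 and -0.96 ± 0.216 at the 3 ages. Cd14 had log2 fold changes of -0.65 ± 0.27, -1.08 ± 0.262 and -1.22 ± 0.253. At 1 month its call (edgeR adjusted p = 0.0544) was lost on leaving out F/M control replicate 2 (adjusted p = 0.279) or any 1 of Cb control replicates 1, 2 and 3 (adjusted p = 0.107, 0.106 and 0.109). Tlr9, the receptor for CpG DNA, was lower in Cb at 2 months (-1.54 ± 0.479) and 3 months (-1.28 ± 0.4), but at 1 month its log2 fold change was -0.28 ± 0.389 and was not called.

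Tlr4, the lipopolysaccharide receptor, went the other way. At 2 months it measured 1.41, 1.21 and 1.62 CPM in control F/M and 2.19, 1.99 and 2.65 CPM in control Cb, a log2 fold change of 0.68 ± 0.213 (edgeR adjusted p = 0.00883). Without Cb control replicate 3 or F/M control replicate 2 the fold fell under 1.5 (log2 fold changes of 0.56 and 0.58). At 3 months its Cb libraries were also above the F/M ones but the log2 fold change was 0.16 ± 0.165 and was not called. Tlr1 was called lower in Cb at 2 months only (-1.20 ± 0.462, edgeR adjusted p = 0.0297), a call that was lost without Cb control replicate 2, the library with 1 read (adjusted p = 0.191). Tlr3 differed between regions by log2 values of -0.16, 0.12 and -0.17 at 1, 2 and 3 months, and Myd88 by 0.21, -0.21 and 0.03.

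The 12 microglia markers were all called lower in control Cb at each age, with medians of -1.62, -1.65 and -1.62 on the log2 scale at 1, 2 and 3 months. Their summed level ranged from 435 to 457 CPM in control F/M and from 142 to 179 CPM in control Cb at 3 months, and the part of this difference in the members' values was not tested. In bulk tissue fewer cells of a type and less RNA per cell cannot be told apart.

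**Figure D2:**
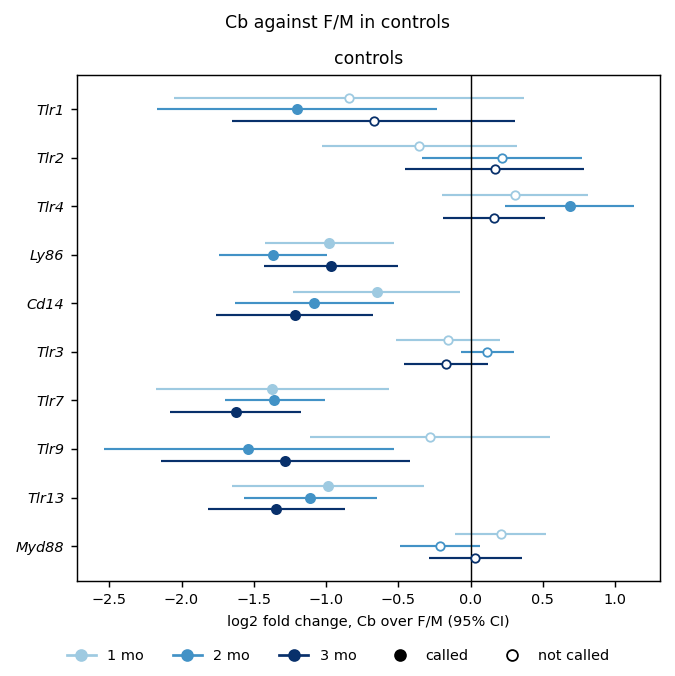
Log2 fold change of control Cb over control F/M for each member at 1, 2 and 3 months (light to dark blue), with 95% confidence intervals; filled points were called and open points were not. Ly86, Cd14, Tlr7 and Tlr13 lie left of 0 with filled points at all 3 ages, and the only filled point right of 0 is Tlr4 at 2 months.

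The second comparison asked how Tpp1-/- differed from control within each region and age. At 3 months 5 of the 10 members rose in Tpp1-/- Cb and 2 of 10 rose in Tpp1-/- F/M, against controls labelled wt whose Tpp1 level was near that of the libraries labelled Tpp1+/-. At 1 and 2 months none was called in either region. Leaving out 1 library at 3 months gave 4 to 5 called members in Cb and 0 to 2 in F/M. With the 6 libraries of a region fitted alone, fewer members were called in Cb and more in F/M. The genes that rose in Cb were Ly86, Cd14, Tlr7, Tlr13 and Tlr2, by 2.24-fold to 2.91-fold. Of all 17224 genes tested at 3 months, 0.859% were called in Cb (0.673% higher) and 0.464% in F/M (0.412% higher). Every member had a log2 fold change above 0 in both regions at 3 months, with a median of 1.02 in Cb and 0.53 in F/M, while the median over all genes tested was within 0.01 of 0.

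Among the cell-surface members in Cb at 3 months, Ly86 measured 14.8, 7.83 and 10.6 CPM in Tpp1-/- against 3.71, 4.54 and 3.14 CPM in control, so that the lowest Tpp1-/- library was above the highest control. The means were 11.1 ± 3.51 and 3.80 ± 0.703 CPM (SD, n = 3), and the log2 fold change was 1.54 ± 0.21 (SE; edgeR adjusted p = 0.00202). Ly86 stayed called when the 6 Cb libraries were fitted alone, and the adjusted p ranged from 3.47e-15 to 0.078 over its 20 alternative fits.

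Cd14, the co-receptor that hands lipopolysaccharide to TLR4, was counted at 3 months over chr18:36725074-36726736 (1572 exonic bases). The 1-month gene model was chr18:36725067-36726798 (1732 exonic bases). At 3 months Cd14 measured 2.59, 2.24 and 2.68 CPM in Tpp1-/- Cb and 1.11, 0.642 and 0.82 CPM in control Cb. The groups were well apart, and the log2 fold change was 1.54 ± 0.243 (edgeR adjusted p = 0.00689). The Tpp1-/- Cb mean of 2.5 ± 0.229 CPM was numerically above the 2.02 ± 0.46 CPM of control F/M, although control Cb, at 0.859 ± 0.238 CPM, was the lowest of the 4 groups at that age.

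Tlr2, which detects lipopeptides together with TLR1 or TLR6, measured 4.59, 4.23 and 3.52 CPM in Tpp1-/- Cb and 1.49, 2.29 and 1.09 CPM in control Cb. All 3 Tpp1-/- libraries were higher, with a log2 fold change of 1.34 ± 0.255 (edgeR adjusted p = 0.0238), and the call was lost without Cb control replicate 1 (adjusted p = 0.125). Its dimer partner Tlr1 measured 0.439, 0.762 and 0.422 CPM against 0.371, 0.367 and 0.137 CPM. The groups did not overlap but the difference, 0.88 ± 0.43 on the log2 scale, was not called (edgeR adjusted p = 0.78). Tlr4 measured 2.79, 3.43 and 3.61 CPM against 3.20, 2.84 and 2.87 CPM, with overlapping groups and a log2 fold change of 0.14 (95% CI -0.20 to 0.48).

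Of the endosomal receptors, Tlr7 measured 4.35, 3.64 and 6.38 CPM in Tpp1-/- Cb and 1.62, 2.11 and 2.23 CPM in control Cb, with no overlap. The log2 fold change was 1.26 ± 0.212 (edgeR adjusted p = 0.0111). Its level in Tpp1-/- Cb, 4.79 ± 1.42 CPM, was numerically below the 6.14 ± 0.616 CPM of control F/M.

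Tlr13 measured 2.63, 2.62 and 3.43 CPM in Tpp1-/- Cb and 1.39, 1.61 and 0.865 CPM in control Cb. Every Tpp1-/- library was above every control, with a log2 fold change of 1.16 ± 0.219 (edgeR adjusted p = 0.0224), a call that was lost without Cb Tpp1-/- replicate 3 (adjusted p = 0.115). Tlr9 measured 0.399, 0.804 and 0.751 CPM against 0.464, 0.183 and 0.501 CPM, and the groups overlapped. Its log2 fold change of 0.75 had a 95% CI of -0.13 to 1.63.

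Tlr3, the double-stranded RNA receptor and the member that does not use MyD88, measured 18.7, 18.1 and 20.7 CPM in Tpp1-/- Cb and 20.4, 19.3 and 13.6 CPM in control Cb. The log2 fold change was 0.11 with a 95% CI of -0.18 to 0.40, so that a 1.5-fold rise lay outside the interval. Myd88, the adaptor of the other receptors, measured 6.18, 5.76 and 5.45 CPM against 3.99, 4.54 and 4.96 CPM. Its groups did not overlap, but the log2 fold change was 0.37 ± 0.145 and was not called (edgeR adjusted p = 0.634).

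In all, 7 of the 10 members had Tpp1-/- Cb libraries entirely above the control ones at 3 months, as did 4.46% of all genes tested, and 3 overlapped. When the 6 Cb libraries were fitted without the F/M libraries, Ly86 was the 1 member still called. The adjusted p was then 0.111 for Cd14, 0.226 for Tlr7, 0.239 for Tlr2 and 0.4 for Tlr13, while their log2 fold changes stayed between 1.17 and 1.54. DESeq2 and limma-voom each called 5 members.

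In F/M at 3 months the rise of Tlr2 was of the size seen in Cb. It measured 4.02, 3.73 and 3.34 CPM in Tpp1-/- and 1.02, 1.43 and 1.87 CPM in control, without overlap, and the log2 fold change was 1.35 ± 0.269 (edgeR adjusted p = 0.0512). Ly86 measured 13.6, 14.4 and 14.4 CPM in Tpp1-/- and 8.05, 6.47 and 7.69 CPM in control, a log2 fold change of 0.93 ± 0.201 (edgeR adjusted p = 0.0893). Both sets of libraries were clearly apart.

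These F/M calls were close to the threshold. Without F/M control replicate 1 or 2, or without Tpp1-/- replicate 1, 2 or 3, neither Tlr2 nor Ly86 was called (edgeR adjusted p of 0.121 to 0.344 for Tlr2 and 0.272 to 0.464 for Ly86). Without F/M control replicate 3, Cb control replicate 1 or 2, or Cb Tpp1-/- replicate 3, Ly86 alone was lost (adjusted p = 0.245, 0.139, 0.101 and 0.118). Ly86 also lost its call with limma-voom (adjusted p = 0.105), with the sex label as a term (0.117) and with the replicate number as a block (0.164). When the 6 F/M libraries were fitted alone, 4 members were called, with Tlr1 (adjusted p = 0.0202) and Cd14 (adjusted p = 0.0592) beside Tlr2 and Ly86.

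Of the members not called in F/M, Tlr1 measured 1.16, 1.57 and 0.977 CPM in Tpp1-/- against 0.408, 0.622 and 0.394 CPM in control. Its log2 fold change of 1.39 ± 0.375 had an edgeR adjusted p of 0.243, with 8 to 29 reads per library. Cd14 measured 2.81, 3.57 and 3.09 CPM against 1.73, 2.55 and 1.77 CPM (log2 fold change 0.65 ± 0.222). Tlr7 measured 9.31, 9.68 and 8.49 CPM against 5.86, 5.72 and 6.85 CPM (0.57 ± 0.188), and Tlr13 4.41, 4.98 and 4.48 CPM against 3.06, 3.61 and 3.20 CPM (0.49 ± 0.197). These groups did not overlap, yet each adjusted p was above 0.2.

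For Tlr4 and Myd88 in F/M at 3 months the log2 fold changes were 0.37 ± 0.165 and 0.26 ± 0.149, both without overlap of the groups. Tlr9 (0.41 ± 0.345) and Tlr3 (0.11 ± 0.136) overlapped between genotypes. In all 8 of 10 members had every Tpp1-/- F/M library above every control, against 11.8% of all genes tested.

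**Figure D3:**
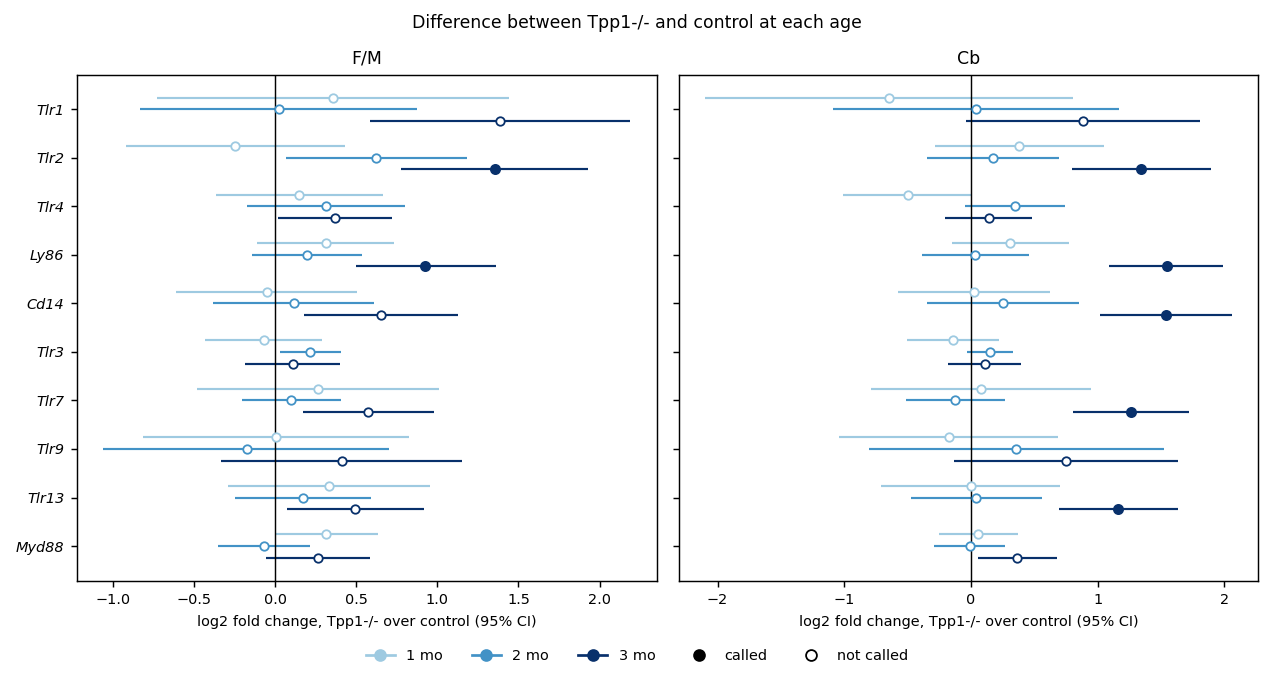
Log2 fold change of Tpp1-/- over control for each member in F/M (left) and Cb (right) at 1, 2 and 3 months (light to dark blue), with 95% confidence intervals; filled points were called and open points were not. Filled points appear at 3 months alone, for Tlr2 and Ly86 in F/M and for Tlr2, Ly86, Cd14, Tlr7 and Tlr13 in Cb.

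Microglia markers also moved at 3 months. In Cb all 12 had a log2 fold change above 0, with a median of 0.561, and 3 of 12 rose, among them Fcrls, a microglial Fc receptor-like gene (1.94 ± 0.142), and Aif1, which encodes the microglial protein IBA1 (1.32 ± 0.26). Their summed level ranged from 142 to 179 CPM in control Cb and from 241 to 310 CPM in Tpp1-/- Cb. In F/M the median was 0.072, 1 of 12 rose (Fcrls, 0.74 ± 0.13), and the sum ranged from 435 to 457 CPM in control and 495 to 547 CPM in Tpp1-/-. None of the 12 was at 0 in any group. The 6 border macrophage markers had medians of 0.485 in Cb and 0.035 in F/M, and none was called. Their sum ranged from 12.3 to 13.9 CPM in Tpp1-/- Cb and 9.63 to 10.5 CPM in control Cb, and overlapped between genotypes in F/M. Of the 6 neutrophil markers 3 were tested at 3 months, none was called, and their sum ranged from 1.95 to 17.8 CPM in Tpp1-/- Cb and 4.69 to 6.19 CPM in control Cb. Astrocyte markers (6 genes) were also higher in sum, from 4740 to 5270 CPM in Tpp1-/- Cb against 4290 to 4510 CPM in control Cb, and from 2540 to 2610 CPM in Tpp1-/- F/M against 2240 to 2300 CPM in control F/M. Of these 6 genes 1 rose in each region, Gfap (log2 fold changes of 1.77 ± 0.119 in Cb and 1.41 ± 0.118 in F/M), and the medians were 0.054 and -0.006. The part of these cell types in the members' rise was not tested.

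The members' levels were also set against the mean log2 CPM of the 12 microglia markers in the same library, a description added after the data were seen. In Cb at 3 months this relative level was higher in Tpp1-/- by 0.84 for Ly86, 0.82 for Cd14 and 0.70 for Tlr2 (log2 units), and in these genes the groups did not overlap. For Tlr7 and Tlr13 it was higher by 0.55 and 0.49, with overlapping groups. Tlr3 and Tlr4 had lower relative levels in Tpp1-/- Cb, by 0.521 and 0.517 as a size, each without overlap. The marker mean itself was 3.74 in Tpp1-/- Cb against 3.09 in control Cb, and 4.85 against 4.68 in F/M. Before this scaling Tlr3 and Tlr4 overlapped between genotypes in Cb, with log2 fold changes of 0.11 and 0.14. In F/M the relative level was higher by 1.17 for Tlr2, 1.05 for Tlr1, 0.76 for Ly86, 0.46 for Cd14, 0.40 for Tlr7 and 0.31 for Tlr13, all without overlap. The share of all genes without overlap on this scale was not counted in either region, so nothing particular to the members is read from it. With 3 against 3 libraries an exact permutation test cannot go below p = 0.1, which is the value for each gene named here as not overlapping.

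**Figure D4:**
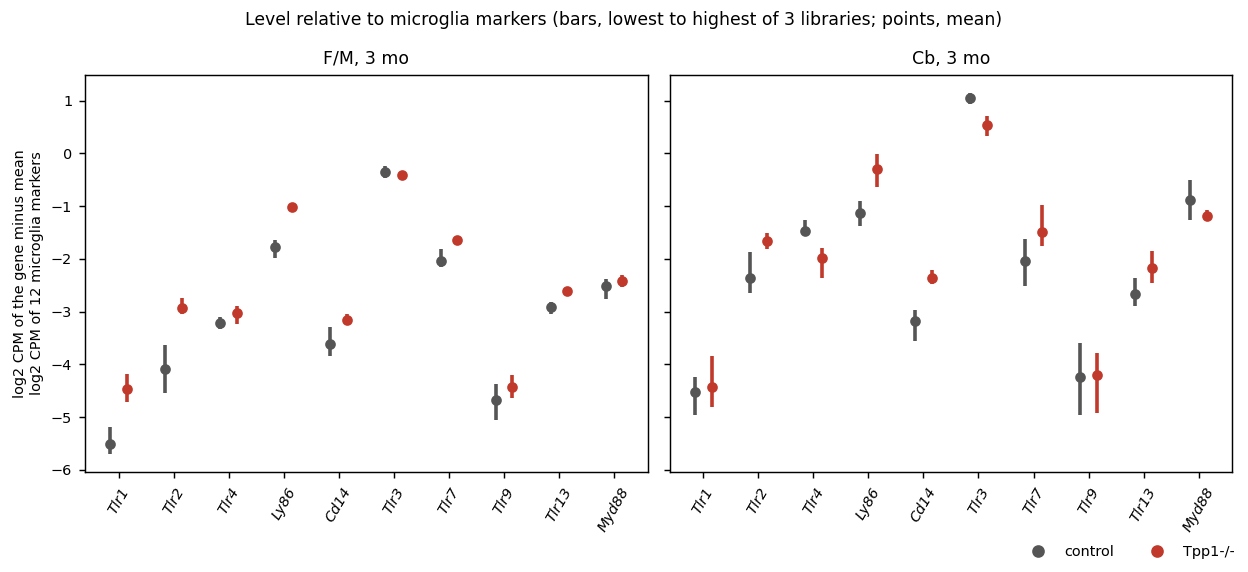
Level of each member relative to 12 microglia markers at 3 months, as log2 CPM of the gene minus the mean log2 CPM of the markers in the same library, for F/M (left) and Cb (right); points are means and bars run from the lowest to the highest of 3 libraries, grey for control and red for Tpp1-/-. Ly86, Cd14 and Tlr2 sit higher in Tpp1-/- in both regions, whereas Tlr3 and Tlr4 sit lower in Tpp1-/- Cb. The marker mean was itself higher in Tpp1-/- Cb (3.74 against 3.09 log2 CPM), where Tlr3 and Tlr4 CPM overlapped between genotypes.

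Whether the effect of genotype differed between Cb and F/M was tested as an interaction. By edgeR no member was called at any age (adjusted p under 0.1), and neither DESeq2 nor limma-voom called one. At 1, 2 and 3 months respectively 0%, 2.97% and 0.00581% of all genes were called, and 0, 0 and 3 members had an unadjusted p under 0.05, as did 347 of 17916, 1987 of 17229 and 604 of 17224 genes. The 3 at 3 months were Cd14 with a Cb minus F/M difference of 0.88 (95% CI 0.17 to 1.6), Tlr7 with 0.69 (0.08 to 1.3) and Tlr13 with 0.67 (0.04 to 1.3). For Ly86 the difference was 0.62 (-0.01 to 1.24), and for Tlr2 it was -0.01 (-0.80 to 0.77). The larger number of calls in Cb is by itself no measure of a larger rise there, and these intervals do not settle whether the rise differed between regions.

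At 1 month no member was called in F/M or in Cb by edgeR, DESeq2 or limma-voom, and 0 had an unadjusted p under 0.05 in either region (338 of 17916 genes did in F/M and 1373 in Cb), while 0.0112% of all genes were called in each. The log2 fold changes ranged from -0.25 (Tlr2) to 0.36 (Tlr1) in F/M and from -0.65 (Tlr1) to 0.38 (Tlr2) in Cb. In Cb, Tlr4 measured 1.35, 1.86 and 2.08 CPM in Tpp1-/- and 2.39, 2.75 and 2.32 CPM in control, a log2 fold change of -0.50 (95% CI -1.01 to 0.01), and was the 1 member of 10 with Tpp1-/- libraries entirely below control, as 3.71% of all genes were. In F/M, Myd88 measured 5.17, 5.47 and 5.37 CPM against 3.99, 4.05 and 4.78 CPM, a log2 fold change of 0.32 (95% CI 0.00 to 0.63), and was the 1 member entirely above control, against 8.31% of all genes. The 95% CI of Ly86 was -0.11 to 0.73 in F/M and -0.15 to 0.77 in Cb, which leaves room for a 1.5-fold rise.

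At 2 months no member was called by any of the 3 tools either, against 0.737% of all genes in F/M and 2.05% in Cb. In F/M 2 of 10 members had an unadjusted p under 0.05, as did 2907 of all 17229 genes tested, and in Cb 0 of 10 and 1666 genes did. Tlr2 measured 1.35, 1.58 and 2.20 CPM in Tpp1-/- and 0.846, 1.26 and 1.1 CPM in control, a log2 fold change of 0.62 ± 0.264 (edgeR adjusted p = 0.243). Tlr3 measured 18.1, 17.0 and 17.2 CPM against 15.9, 14.6 and 14.6 CPM, a log2 fold change of 0.22 ± 0.0896 (edgeR adjusted p = 0.233). These 2 were the members without overlap, against 9.46% of all genes higher in the same way. In Cb 0 of 10 members were without overlap, against 18.1% of all genes in either direction. The 95% CI there was -0.39 to 0.45 for Ly86 and -0.52 to 0.27 for Tlr7, so that for both a 1.5-fold rise was outside the interval. For Cd14 it was -0.35 to 0.85.

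Because the same genes were measured at 3 ages, the difference of the genotype effect between ages was tested over all 36 libraries and 18322 genes. The control Tpp1 level also differed between ages, and its part in these differences was not tested. In Cb the effect on Ly86 was larger at 3 months than at 2 months by 1.51 ± 0.317 on the log2 scale (edgeR adjusted p = 0.0063), where 1.44% of all genes differed, and this call held in all 18 alternative fits. Against 1 month Cd14 differed by 1.52 ± 0.358 (edgeR adjusted p = 0.0575) and Ly86 by 1.23 ± 0.307 (edgeR adjusted p = 0.0828), where 0.458% of all genes differed. Leaving out 1 library ended the Cd14 call in 7 cases, which were Cb control replicates 1, 2 and 3 and Tpp1-/- replicate 2 at 1 month and control replicates 2 and 3 and Tpp1-/- replicate 3 at 3 months (adjusted p of 0.108 to 0.181). It ended the Ly86 call for control replicates 1 and 2 and Tpp1-/- replicate 2 at 1 month and for control replicates 1 and 3 and Tpp1-/- replicate 3 at 3 months (adjusted p of 0.132 to 0.269). Limma-voom and the replicate block also ended the Ly86 call against 1 month (adjusted p = 0.19 and 0.198). Among the 12 microglia markers the effect in Cb was larger at 3 months than at 2 months for 5 and than at 1 month for 1, and their part in these differences was not tested.

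Tlr7 and Tlr13 in Cb had differences of 1.38 ± 0.446 and 1.12 ± 0.41 between 3 and 2 months (edgeR adjusted p = 0.21 and 0.377), and Tlr2 of 1.17 ± 0.377 (adjusted p = 0.207). Tlr13 passed against 1 month without Cb Tpp1-/- replicate 1 at 3 months (adjusted p = 0.0845), and Tlr7 did without the filter on low counts (adjusted p = 0.0188). Against 2 months Tlr7 passed with the replicate number as a block (adjusted p = 0.0135), with DESeq2 (0.0833) and without the filter on low counts (0.00136). Tlr2 passed without Cb control replicate 2 at 3 months (adjusted p = 0.0421), and Cd14, with a difference of 1.28 ± 0.38 (adjusted p = 0.129), passed without Cb control replicate 1 at 3 months (adjusted p = 0.0591). In F/M 0 members were called by edgeR for either pair of ages, where 0.153% of all genes (3 against 1 month) and 0.393% (3 against 2 months) were, and 3 and 2 members had an unadjusted p under 0.05, as did 992 and 1487 of the 18322 genes. Tlr2 had the largest F/M difference against 1 month, 1.61 ± 0.393 (edgeR adjusted p = 0.145), which passed with DESeq2 (0.0675), without the filter (0.0372) and without F/M control replicate 3 at 3 months (0.0698).

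Of 61 further genes of Toll-like receptor signalling, 51 were tested at 3 months, and 2 rose in F/M and 2 in Cb, with none lower, where 0.412% and 0.673% of all genes rose. The median log2 fold change over those tested was 0.094 in F/M and 0.038 in Cb. At 1 month 0 of 51 were called in either region by edgeR, DESeq2 or limma-voom.

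Among the transcription factors, 1 of 9 rose in each region at 3 months. Irf8, a factor of the myeloid lineage, measured 4.67, 3.56 and 4.18 CPM in Tpp1-/- Cb and 1.44, 1.42 and 1.18 CPM in control Cb. The libraries were far apart, with a log2 fold change of 1.61 ± 0.185 (edgeR adjusted p = 0.000375), and the effect in Cb was also larger than at 1 month (by 1.34 ± 0.302, adjusted p = 0.0381) and 2 months (by 1.59 ± 0.296, adjusted p = 0.00168). In F/M Irf8 measured 6.4, 5.68 and 5.25 CPM in Tpp1-/- and 4.23, 3.85 and 3.25 CPM in control. These F/M groups did not overlap either, but Irf8 was not called there. Irf7, which drives type I interferon downstream of TLR7 and TLR9, measured 6.64, 5.79 and 4.01 CPM in Tpp1-/- F/M and 2.80, 2.61 and 2.76 CPM in control F/M, a log2 fold change of 1.01 ± 0.221 (edgeR adjusted p = 0.0974). The F/M call of Irf7 was lost without F/M control replicate 1, 2 or 3, F/M Tpp1-/- replicate 1 or 2, Cb control replicate 1 or Cb Tpp1-/- replicate 3, and with limma-voom, RLE size factors, the sex label or the replicate block. In Cb the log2 fold change of Irf7 was 0.51 ± 0.217 and was not called. No NF-kappaB subunit was called.

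Among the response genes, 4 of 11 had enough counts to be tested at 3 months and 1 rose, in both regions. Cxcl10, an interferon-induced chemokine, measured 4.75, 2.92 and 1.85 CPM in Tpp1-/- F/M and 0.408, 0.124 and 0.246 CPM in control F/M, with 2 to 8 reads in the controls. The log2 fold change was 3.55 ± 0.503 in F/M (edgeR adjusted p = 0.00509) and 2.67 ± 0.512 in Cb (edgeR adjusted p = 0.0246). Without Cb control replicate 1 or 3 the Cb call of Cxcl10 was lost, as it was when the 6 Cb libraries were fitted alone.

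None of the 17 adaptors and proximal kinases tested, the 9 inhibitors or the 9 receptor partners and trafficking proteins was called at 3 months in either region. Unc93b1, which carries the endosomal receptors out of the endoplasmic reticulum, had an edgeR adjusted p of 0.0697 in Cb but a log2 fold change of 0.58, below the minimum fold. Cd180, the receptor that Ly86 partners, had log2 fold changes of 1.05 ± 0.282 in Cb and 1.04 ± 0.25 in F/M and was not called by edgeR (adjusted p = 0.193 and 0.152). DESeq2 and the fit without a filter on low counts called Cd180 in both regions.

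The other Toll-like receptors were near the limit of detection. Tlr11 had 0 to 2 reads per library and Tlr8 1 to 11, and neither was tested at 3 months. Tlr5 had 1 to 22, Tlr6 1 to 28 and Tlr12 2 to 17 reads. None of Tlr5, Tlr6 and Tlr12 was called at 3 months, and the log2 fold change of Tlr6 in F/M was 1.22 with a 95% CI of 0.26 to 2.19.

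At 2 months 49 of the 61 pathway genes were tested, and 2 were called in F/M and 1 in Cb, against 0.737% and 2.05% of all genes, so that the Cb count is near the background. Lbp, the lipopolysaccharide-binding protein that loads CD14, rose in both regions, with log2 fold changes of 0.71 ± 0.158 in F/M (edgeR adjusted p = 0.0404) and 0.61 ± 0.137 in Cb (edgeR adjusted p = 0.0168). Among choroid plexus markers in the same libraries, 3 of 7 were called in F/M and 2 of 7 in Cb. Their sum was 1550 to 1730 CPM in Tpp1-/- Cb against 956 to 1250 CPM in control Cb. In F/M the sums overlapped, at 522 to 697 CPM in Tpp1-/- against 238 to 618 CPM in control. The part of these markers in the Lbp values was not tested. Ptgs2, which encodes cyclooxygenase 2, was lower in F/M by a log2 fold change of -0.67 ± 0.141 (edgeR adjusted p = 0.0312). The F/M count at 2 months dropped to 0 without F/M control replicate 1, F/M control replicate 3 or F/M Tpp1-/- replicate 1. The Cb count dropped to 0 without Cb control replicate 1 or Cb Tpp1-/- replicate 2.

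Finally, likeness of pattern was described by Pearson's r of log2 CPM over the 36 libraries, each gene centred within each age, among 16713 genes tested at all ages. The libraries share 2 regions, so that r reflects the region difference as well as genotype. Within the members the highest values were between Tlr7 and Tlr13 (r = 0.935), Cd14 and Ly86 (0.875) and Tlr13 and Ly86 (0.845). Outside them, Ly86 was most like C1qa (0.97) and Ctss (0.969), and Cd14 most like C1qc (0.897) and Mpeg1 (0.893). Tlr7 was most like Havcr2 (0.947) and Kcnk6 (0.94), and Tlr13 like Havcr2 (0.922) and Ncf1 (0.918).

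Tlr2 had other neighbours, Gfap (0.822), the intermediate filament of astrocytes, and Ifi35 (0.804). The nearest to Tlr3 were Slitrk2 (0.81) and Gm527 (0.797), to Tlr4 Gna13 (0.786) and Tmed8 (0.784), and to Tlr1 Naip5 (0.78) and Edem1 (0.758). Tlr9 (Olfr78, 0.754, and Hfm1, 0.749) and Myd88 (Amz2, 0.661, and Ctsd, 0.653) had weaker likenesses.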

How the data were processed

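Total RNA from F/M and Cb was sequenced from stranded mRNA libraries (single-end reads). According to the study's methods and the file headers, the authors aligned reads with STAR (version 2.5.2b) to mm10 and deposited raw counts per gene from featureCounts, which was version 1.6.3 with GENCODE M21 at 1 month, and version 1.6.2 with GENCODE M16 and M18 at 2 and 3 months. The strand option also differed between ages (1, 2 and 1), but an antisense gene that overlaps Tlr3 had 4, 3 and 6 reads over the 12 libraries of each age, so sense reads were counted throughout. Myd88 shares 290 exonic bases with Acaa1a on the other strand.

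The deposited counts were analysed with edgeR 4.0.16 in R 4.3.3 (TMM, filterByExpr, quasi-likelihood), with the 12 libraries of an age in one fit and all 36 for differences between ages. P-values were adjusted by Benjamini-Hochberg over all genes tested, and 0.1 and a fold of 1.5 were the thresholds, values taken from the study. The study's own calls needed edgeR, DESeq2 and limma together, and at 1 month it also counted genes by raw p-values. Calls here are by edgeR alone with adjusted p at every age. Interactions had no minimum fold. CPM are TMM-scaled. The SE of a log2 fold change was derived from the F statistic, and log2 CPM used a prior count of 2. Alternatives were DESeq2 1.42.0, limma-voom (limma 3.58.1), RLE size factors, no filter, no fold minimum, the sex label, replicate blocks, 6 libraries alone and each library left out. The fits were tested on simulated data. Nothing in the labels says more of the replicates than that they are separate samples, so p-values measure the spread between these samples. Small counts limit the precision for Tlr1 and Tlr9. The members and gene lists were chosen with earlier results of these data known, and the text names all members, pathway genes that were called, the other Toll-like receptors and, for each member, the 2 genes of highest r; Unc93b1, Cd180 and the microglia markers named were chosen after their values were seen.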

Additional observations from a re-analysis of the deposited data

Results flagged for a closer look

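The effect of genotype in Cb differed between ages for 2 members, by a test of the difference itself. For Ly86 the log2 difference was 1.51 between 3 and 2 months (edgeR adjusted p = 0.0063) and 1.23 between 3 and 1 month (edgeR adjusted p = 0.0828). For Cd14 it was 1.52 between 3 and 1 month (edgeR adjusted p = 0.0575). In each case all 3 Tpp1-/- Cb libraries were above all 3 control libraries at 3 months and the groups overlapped at the earlier age. The Ly86 call against 2 months held in 18 of 18 alternative fits. Those against 1 month held in 10 of 18 for Ly86 and 11 of 18 for Cd14. Ages were also counted with different software versions and gene models, which cannot be told apart from age in levels. The gene model of Cd14 held 1732 exonic bases at 1 month and 1572 at 3 months. The control libraries at 3 months, labelled wt, had Tpp1 levels near those of the 1-month libraries labelled Tpp1+/- (50.8 to 56.0 CPM in Cb), a comparison across ages that shares this limit, and the part of this in the differences was not tested. Groups of 3 libraries are too small for a test of outlying samples.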

How the results depend on the processing

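Among the 91 member log2 fold changes at least 1 SE from 0, 570 of 587 values kept direction and call under alternatives other than leaving out a library, 9 lost and 8 gained a call, and none reversed. With libraries left out 1 reversed, the log2 fold change of Tlr13, F/M, 1 mo, which was -0.00183 without Tpp1-/- replicate 2 and at most 0.555 without another library. For the 69 estimates within 1 SE of 0, 118 of 1277 values had the other sign. The labels do not say that replicate numbers pair samples. Same-numbered control and Tpp1-/- libraries had mean correlations of 0.122, 0.038 and 0.032 at 1, 2 and 3 months, with some below 0 at each age. Between F/M and Cb the means were 0.136, 0.037 and 0.001, and at 1 month all 6 were above 0 (0.095 to 0.198), so that shared animals are possible there; the block over regions left 4 members called for region at 1 month and 0 for the region by genotype difference. The cause of the changes below was not tested.

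Members called in F/M at 3 months numbered 2, and 1 with limma-voom, the sex label or the replicate block, and 4 with 6 libraries alone; in Cb 5 became 1 with 6 libraries alone. Pathway genes called in F/M at 3 months numbered 2, and 1 with limma-voom, RLE, the sex label or the replicate block, and 4 without the filter or with 6 libraries alone. DESeq2 called 3 pathway genes in each region at 3 months, against 2 in each by edgeR. With 6 libraries alone, pathway genes called in Cb at 3 months and F/M at 2 months went from 2 to 1. Members with a different effect at 3 and 1 months went from 0 to 1 in F/M with DESeq2 or no filter, and in Cb from 2 to 1 with limma-voom or the replicate block and to 3 without the filter; between 3 and 2 months in Cb, 1 became 2 with DESeq2, no filter or the replicate block.

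Leaving out each library gave 0 to 2 members in F/M and 4 to 5 in Cb at 3 months, 3 to 4, 6 to 7 and 5 for region at 1, 2 and 3 months, 0 to 3 (Cb) and 0 to 1 (F/M) for 3 against 1 month, and 1 to 2 (Cb) and 0 (F/M) for 3 against 2 months. Pathway counts were 0 to 3 (F/M) and 0 to 1 (Cb) at 2 months and 1 to 5 (F/M) and 1 to 3 (Cb) at 3 months. The remaining counts stayed at 0. The sex term was not run at 2 months, where all libraries were labelled male.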

Other observations

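Tlr7 and Tlr13 are X-linked, and at 1 month the library labelled female had the lowest Tlr7 CPM in 4 of 4 groups and the lowest Tlr13 CPM in 3 of 4. In F/M control at 1 month Tlr7 measured 4.05 CPM in the library labelled female and 6.21 and 6.95 CPM in the libraries labelled male. At 3 months the library labelled female was the highest for Tlr7 in 3 of 4 groups and the lowest in 1. For Tlr13 at 3 months it was the highest in 1 and the lowest in 1. Of the autosomal members none had its lowest CPM in that library in more than 2 of 4 groups at 1 month, and Tlr3 and Ly86 had their highest CPM in it in 3 of 4 groups. At 3 months Tlr1 had its lowest there in 4 of 4 and Tlr2 in 3 of 4. The labels do not say whether F/M and Cb libraries share animals, so the 4 groups cannot be taken as independent. With 1 such library per group, sex and replicate number cannot be told apart, and no test was made. The pattern was noticed in the data.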
